A study of Mus musculus with 16 samples.

Results

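The glycolysis and hypoxia-response genes are a fixed set of 36 genes that carry out or control glycolysis, sense oxygen, or are well-known targets of the hypoxia-inducible factors (HIFs). The members were taken by name. All 36 were found among the 37003 genes of the count table, and all 36 were among the 31085 genes tested. They fall into 15 glycolytic enzymes, 3 genes of glycolytic control, 3 HIF subunits, 3 genes of oxygen sensing and 12 HIF targets.

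RNA was sequenced from sorted mouse brain endothelial cells (bECs) in 16 libraries, 4 in each of 4 groups. YT-iKO mice carried floxed alleles of Yap (Yap1) and Taz (Wwtr1) and the tamoxifen-inducible Pdgfb-iCreER transgene, which also expresses eGFP and drives recombination in endothelial cells. CTRL mice were Cre-negative littermates with the same floxed alleles, and both genotypes received tamoxifen. Adult mice of both sexes underwent 30 min of occlusion of the middle cerebral artery (MCAo) or sham surgery, and the cells were taken 72 h later. After CD31 enrichment, live CD45-, CD31+ cells were sorted from sham tissue or, after MCAo, from the ipsilateral territory of the occluded artery, which was dissected together with the matching contralateral area, and several mice were pooled for each library. Whether cells of both hemispheres entered 1 library is not stated.

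Glycolysis splits glucose into pyruvate in the cytosol, and endothelial cells are known to rely on it for most of their energy, even where oxygen is plentiful. Hexokinases trap glucose, phosphofructokinase commits it, and PFKFB enzymes make the fructose 2,6-bisphosphate that activates phosphofructokinase. In low oxygen the prolyl hydroxylases (Egln genes) and the VHL ligase no longer mark HIF-1α and HIF-2α for destruction, and the stabilised subunits pair with ARNT on the motif ACGTG or GCGTG near their target genes. HIF control acts mainly on the protein, so that Hif1a and Epas1 mRNA do not report HIF activity.

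Libraries held 11418262 to 23074547 counts, and the members took 0.610% to 0.836% of them. Levels below are counts-per-million (CPM) values after TMM scaling, given as mean ± SD over the 4 libraries of a group, and per-gene tests are edgeR quasi-likelihood tests with Benjamini-Hochberg adjustment over all genes tested, called at an adjusted p below 0.1. The TMM factors ran from 0.743 to 1.40, against 0.938 to 1.04 when they were computed from the 9123 genes averaging 10 CPM or more. The factors moved with a low-level background of counts on 1466 olfactory, vomeronasal and taste receptor genes, which ranged from 0.0413 to 0.421 CPM per kb. In the MCAo groups this background was lowest in replicates 1 and 4, and these 2 replicates lay above the other 2 for 31 of 36 members in CTRL MCAo and 30 of 36 in YT-iKO MCAo. With the factors from the genes of at least 10 CPM, that count was 11 and 12. Between those scalings the median log2 fold change of all genes tested shifted by 0.14 for MCAo in CTRL, by 0.19 for the genotype in sham and by -0.14 for the difference of the MCAo responses, so counts of direction are given for both in the enzymes and HIF targets.

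The genotype labels held in every library. Yap1 was at 112 ± 0.511 CPM in CTRL sham and 49.3 ± 9.70 CPM in YT-iKO sham (log2 fold change -1.18, SE 0.22, edgeR adjusted p = 0.0371), and Wwtr1 at 265 ± 9.66 and 72.1 ± 20.9 CPM (-1.88, SE 0.28, edgeR adjusted p = 0.00381). No library of either YT-iKO group reached the lowest CTRL library for either gene. The 10 endothelial markers (among them Pecam1, Cdh5 and Cldn5) summed to 11144 to 25139 CPM over all libraries. The 8 markers of pericytes and smooth muscle summed to 476 to 1422 CPM, the 6 of astrocytes to 62.1 to 113 CPM and the 8 of microglia and macrophages to 7.35 to 35.8 CPM. The 5 markers of fibroblasts summed to 16.9 to 19.1 CPM in CTRL sham and 26.1 to 31.5 CPM in CTRL MCAo, and those of proliferating cells to 9.48 to 13.3 and 18.9 to 35.0 CPM. In YT-iKO the fibroblast sums were 16.97 to 34.8 CPM after sham surgery and 26.0 to 34.0 CPM after MCAo, and 2 of these 5 markers (median log2 fold change 0.74) and 3 of the 8 of pericytes and smooth muscle were higher at an unadjusted p below 0.05, beside 3.01% of all genes in either direction. Pfkfb3 was called in that comparison. After MCAo in CTRL, 3 of the 5 fibroblast markers (median 0.79) and 1 of the 8 of pericytes and smooth muscle were higher at that threshold. So were 2 of the 5 of proliferating cells and 1 of the 6 of astrocytes, against 0 of each in YT-iKO. Of all genes, 3.5% passed it in CTRL in either direction. For all these markers their part in the members' values was not tested. In sorted pools, more cells of a kind and more RNA per cell cannot be told apart.

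Of the 36 members, 32 have a promoter in the RefSeq table of build GRCm38.p6, and the HIF core motif (ACGTG or GCGTG, either strand) stood in the 250 bases before the start of 29 of them (90.6%). The motif was found for 63.9% of 7121 genes averaging 10 CPM or more and for 41.5% of all 27025 genes of the table. Median GC content of these windows was 62.8% for the members, 60.8% for the genes of at least 10 CPM and 52.4% for all genes. By role, the motif stood before 13 of 15 glycolytic enzymes, all 9 HIF targets with a promoter, and all 3 genes of glycolytic control. It also stood before the 2 HIF subunits with a promoter and 2 of 3 genes of oxygen sensing. A match describes letters, and no binding was measured. CACGTG, the E-box that other factors bind, holds ACGTG on each strand and so counts as 2 motifs here. The promoters below are shown because Pfkfb3, Hif1a and Ddit4 had the largest MCAo values among the members in CTRL, while Ankrd37 and Bnip3 are textbook HIF targets whose values hardly moved. Each runs 5′ to 3′ on the gene's strand, stops short of any exon annotated in GENCODE M21, and has the motifs in capitals.
Pfkfb3, chr2:11502102-11502340, minus strand, the inner of its starts in the table: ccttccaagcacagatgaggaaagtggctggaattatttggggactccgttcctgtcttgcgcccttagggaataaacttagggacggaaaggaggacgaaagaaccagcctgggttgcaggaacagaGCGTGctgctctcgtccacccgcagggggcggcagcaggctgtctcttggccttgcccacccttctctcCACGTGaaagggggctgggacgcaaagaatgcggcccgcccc
Hif1a, chr12:73907617-73907866, plus strand: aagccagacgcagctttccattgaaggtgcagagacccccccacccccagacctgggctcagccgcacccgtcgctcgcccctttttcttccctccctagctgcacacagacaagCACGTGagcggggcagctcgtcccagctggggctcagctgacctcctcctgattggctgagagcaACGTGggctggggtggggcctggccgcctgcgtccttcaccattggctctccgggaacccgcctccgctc
Ddit4, chr10:59951835-59952020, minus strand: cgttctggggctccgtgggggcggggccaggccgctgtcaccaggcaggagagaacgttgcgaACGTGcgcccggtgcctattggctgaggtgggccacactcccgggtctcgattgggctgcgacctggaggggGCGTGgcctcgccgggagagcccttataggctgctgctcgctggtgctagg
Ankrd37, chr8:45999868-46000100, minus strand: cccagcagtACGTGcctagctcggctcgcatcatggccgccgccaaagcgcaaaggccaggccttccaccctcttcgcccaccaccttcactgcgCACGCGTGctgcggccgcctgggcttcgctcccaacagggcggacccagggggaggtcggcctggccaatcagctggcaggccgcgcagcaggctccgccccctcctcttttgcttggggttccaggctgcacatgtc
Bnip3, chr7:138909520-138909756, minus strand: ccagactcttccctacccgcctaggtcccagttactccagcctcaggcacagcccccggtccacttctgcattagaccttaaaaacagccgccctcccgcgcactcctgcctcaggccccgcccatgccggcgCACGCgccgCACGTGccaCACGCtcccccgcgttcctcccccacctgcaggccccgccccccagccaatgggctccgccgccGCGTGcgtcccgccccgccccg

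The shown windows held 3 such motifs for Pfkfb3, 3 for Hif1a, 2 for Ddit4, 3 for Ankrd37 and 5 for Bnip3. In each of Pfkfb3, Hif1a and Bnip3, 2 of these form a CACGTG on opposite strands. The number of motifs was not tested against any response.

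Levels per kb of exon differed widely among the members. Epas1, which encodes HIF-2α and is the main HIF subunit of endothelial cells, stood far above all others at 781 CPM per kb, against 30.6 for Hif1a and 14.8 for Arnt, their shared partner. Ndrg1, a stress-response gene induced by hypoxia, followed at 75.8 CPM per kb. Among the enzymes Pkm (pyruvate kinase) reached 63.3, Aldoa (aldolase A) 54.7 and Ldha (lactate dehydrogenase A) 46.6 CPM per kb. Isoenzyme pairs were unequal. Hk1 was at 16.9 and Hk2 at 0.828 CPM per kb, Aldoa at 54.7 and Aldoc at 1.03, Pfkl at 15.1, Pfkm at 9.60 and Pfkp at 2.97, and Pfkfb3 at 7.49 and Pfkfb4 at 1.76. Egln1, the main oxygen-sensing hydroxylase, was at 25.6 CPM per kb and the hypoxia-inducible Egln3 at 0.510. For the 4 members of lowest level, the receptor-gene background would by itself give a median of 46.6% of the counts of Egln3, 27.7% of Hk2, 21.4% of Aldoc and 12.9% of Pfkfb4, and no more than 7.48% for any other member.

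**Figure D1:**
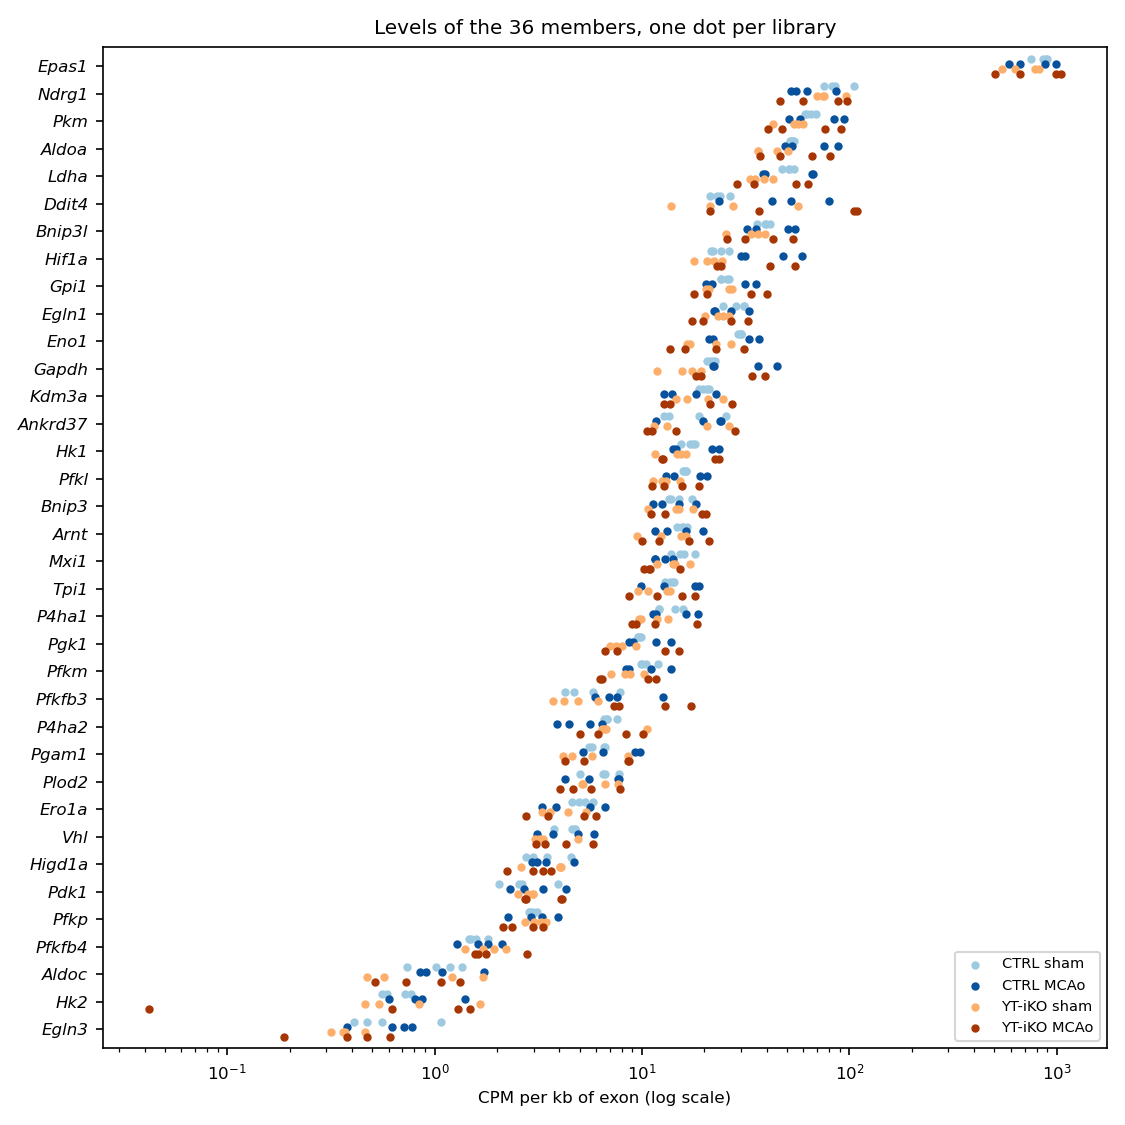
CPM per kb of exon (log axis) of the 36 members in each of the 16 libraries, 1 dot per library coloured by group, ordered by mean level. Epas1 stands alone at the top with a mean of 781, and Egln3, Hk2 and Aldoc lie near or below 1.

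Hk2 varied the most between libraries. In CTRL its values were 3.32, 3.53, 4.27 and 4.61 CPM after sham surgery and 3.59, 5.17, 8.34 and 4.78 CPM after MCAo. In YT-iKO they were 2.75, 3.20, 9.91 and 5.01 CPM after sham surgery and 3.71, 8.83, 7.77 and 0.249 CPM after MCAo. The highest and lowest library differed 39.8-fold, the highest being the library of the highest background (YT-iKO sham 3) and the lowest, with 4 counts, that of the lowest (YT-iKO MCAo 4). The background would by itself give a mean of 1.38 of the 4.94 CPM of Hk2, and its part in this spread was not tested. Counts of direction by role include Hk2, Aldoc, Egln3 and Pfkfb4.

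The first comparison asked whether bECs carried a glycolytic or hypoxic pattern 3 days after MCAo. Pfkfb3, whose enzyme makes the activator of phosphofructokinase, was the only member called in the main test. In YT-iKO MCAo it was 2.38-fold above YT-iKO sham, while the other 35 members were not called. In CTRL no member was called. Hif1a and the stress gene Ddit4 (REDD1, an inhibitor of mTORC1) were higher by point estimate in both genotypes, and the classical HIF targets Bnip3, Pdk1, Ankrd37 and Ldha were not called in either.

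Pfkfb3 (ENSMUSG00000026773, chr2:11471433-11554077) was at 35.4, 43.7, 59.3 and 32.0 CPM in CTRL sham and 95.6, 52.2, 44.6 and 57.3 CPM in CTRL MCAo. YT-iKO sham held 31.7, 37.2, 46.5 and 28.3 CPM, and YT-iKO MCAo 97.6, 55.3, 58.5 and 131 CPM. All 4 YT-iKO MCAo libraries lay above all 4 YT-iKO sham libraries, whereas the CTRL groups overlapped. The log2 fold change was 1.25 (SE 0.29, edgeR adjusted p = 0.0976) in YT-iKO and 0.55 (SE 0.29, unadjusted p = 0.0695, edgeR adjusted p = 1.00) in CTRL. The difference between these responses was 0.70 (95% interval -0.15 to 1.55, edgeR adjusted p = 1.00), so the response is not shown to differ between genotypes. The call in YT-iKO sat close to the threshold. It held in 9 of 10 alternative fits, and leaving out single libraries moved the adjusted p between 0.0170 and 0.559. The call was lost without CTRL sham 1 or 2, CTRL MCAo 2 or 4, YT-iKO sham 1, 2 or 4, or YT-iKO MCAo 1 or 4, with log2 fold changes of 0.97 to 1.40 over all 16 omissions.

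Hif1a (ENSMUSG00000021109, chr12:73901375-73947530), the oxygen-labile HIF-1α subunit, was at 141, 130, 155 and 127 CPM in CTRL sham and 347, 185, 177 and 281 CPM in CTRL MCAo, without overlap. In YT-iKO it was at 143, 132, 105 and 122 CPM in sham and 244, 135, 142 and 322 CPM in MCAo, where replicates 2 and 3 fell within the upper part of the sham range. The log2 fold change was 0.84 (SE 0.27, unadjusted p = 0.00562) in CTRL and 0.75 (SE 0.27, unadjusted p = 0.0118) in YT-iKO, and neither passed the adjustment (edgeR adjusted p = 0.666 and 0.885). With scaling from the genes of at least 10 CPM, the values were 216 to 270 CPM in CTRL MCAo against 121 to 142 in CTRL sham, and 175 to 237 CPM in YT-iKO MCAo against 122 to 141 in YT-iKO sham, without overlap in either genotype. An antisense gene shares 5.60% of the exon length of Hif1a, and these unstranded libraries cannot separate the reads of that shared part. Epas1 went from 4740 ± 385 CPM in CTRL sham to 4353 ± 1036 after MCAo, and from 3886 ± 720 CPM in YT-iKO sham to 4487 ± 1458 after MCAo, with log2 fold changes of -0.12 (95% interval -0.74 to 0.50) and 0.21 (-0.41 to 0.83) after MCAo. Its libraries were at 4177, 4809, 5006 and 4970 CPM in CTRL sham, 5522, 3728, 3271 and 4891 CPM in CTRL MCAo, and, for YT-iKO, 4597, 3523, 3058 and 4366 CPM after sham surgery against 5881, 2817, 3728 and 5521 CPM after MCAo. All these groups overlapped. Arnt had -0.04 and 0.17.

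Ddit4 (ENSMUSG00000020108, chr10:59949669-59951834), singled out after its values were seen, was at 40.5, 37.3, 46.9 and 41.6 CPM in CTRL sham and 140, 74.3, 41.4 and 92.0 CPM in CTRL MCAo. In YT-iKO it was at 99.1, 37.4, 48.4 and 24.2 CPM in sham and 185, 37.2, 64.2 and 191 CPM in MCAo. The groups overlapped in both genotypes, with log2 fold changes of 1.06 (SE 0.45, unadjusted p = 0.0272) in CTRL and 1.19 (SE 0.45, unadjusted p = 0.0149) in YT-iKO and edgeR adjusted p of 1.00 and 0.981. The YT-iKO MCAo libraries fell into a high pair, replicates 1 and 4, and a low pair within the sham range.

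Gapdh, the glyceraldehyde-phosphate dehydrogenase often used as a reference gene, was at 84.7, 88.1, 90.5 and 93.1 CPM in CTRL sham and 185, 92.0, 90.5 and 150 CPM in CTRL MCAo. YT-iKO sham held 80.0, 48.8, 64.6 and 72.2 CPM, and YT-iKO MCAo 139, 75.3, 79.4 and 162 CPM. The MCAo libraries reached higher than any sham library in both genotypes, and the lower ones fell within the sham range. The log2 fold changes were 0.54 (SE 0.27, unadjusted p = 0.0576) and 0.78 (SE 0.27, unadjusted p = 0.00875, edgeR adjusted p = 0.750). The annotation holds 78 near-identical copies of Gapdh (at least 95% identity over 200 bases), and the 55 in the table carry counts equal to 30.2% of those on Gapdh, so that its counts are uncertain.

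**Figure D2:**
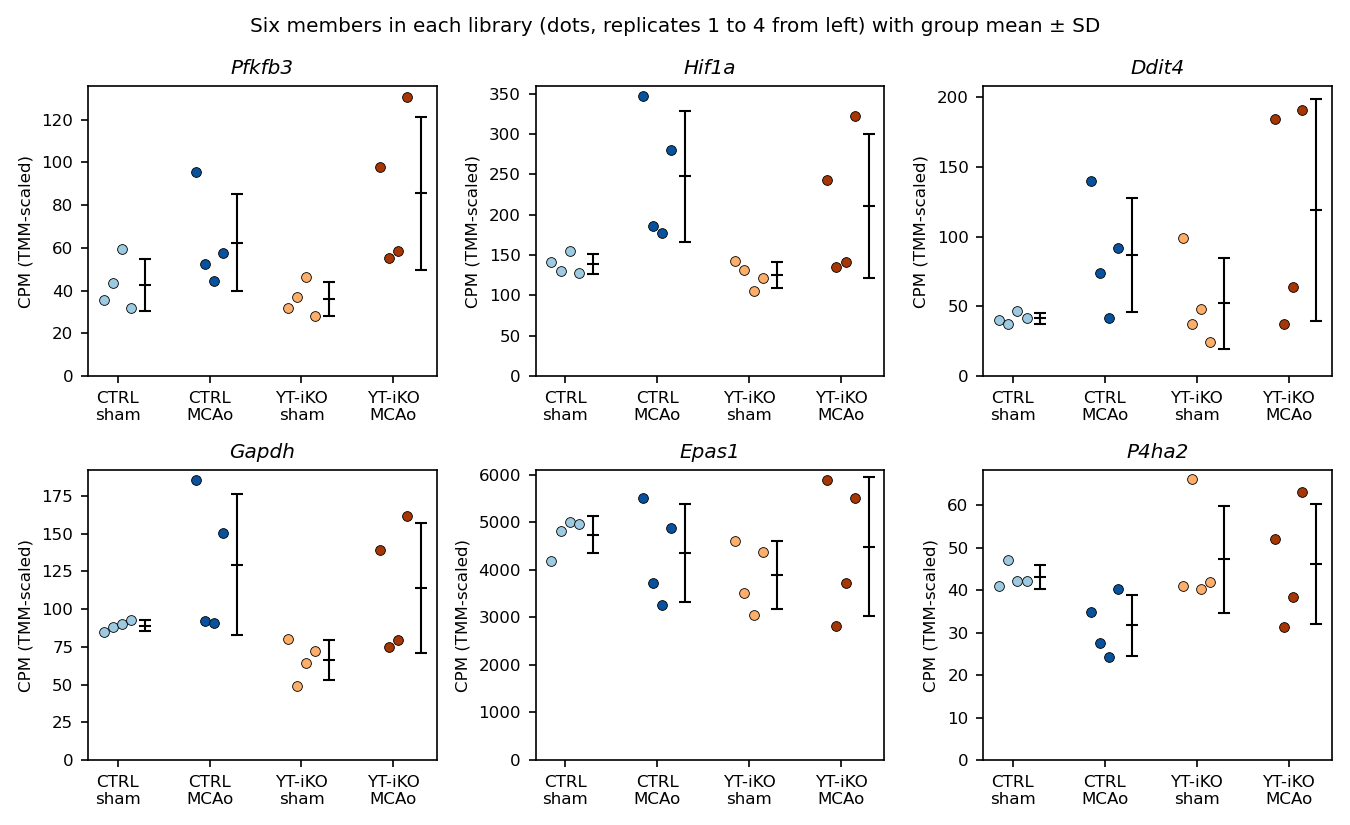
CPM (TMM-scaled) of 6 members in each library, with dots for replicates 1 to 4 from left to right and the group mean ± SD beside them. Pfkfb3 is above sham in all 4 YT-iKO MCAo libraries, and replicates 1 and 4 are the highest of both MCAo groups for most genes shown.

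Across the members the MCAo values were small. In CTRL, 0 of 36 were called, where 67 of all genes (0.216%) were, and 2 had an unadjusted p below 0.05 (all genes 3.5%). Counting groups without overlap of the 4 and 4 libraries, Hif1a was higher and P4ha2 lower, 2 of 36, beside 4.14% of all genes. In YT-iKO, 1 of 36 was called, beside 99 of all genes (0.318%), 4 had an unadjusted p below 0.05 (all genes 3.01%), and Pfkfb3 alone had no overlap (all genes 1.28%). The members' median log2 fold change was 0.08 in CTRL and 0.15 in YT-iKO, beside 0.07 and -0.02 for all genes tested. With factors from the genes of at least 10 CPM, 12 of 36 members had no overlap in CTRL, with 9 higher (Gpi1, Pfkl, Aldoa, Gapdh, Pgk1, Pgam1, Hif1a, Bnip3l and Ddit4) and 3 lower (P4ha2, Ndrg1 and Kdm3a), beside 7.34% of all genes and 17.2% of the genes of at least 10 CPM. In YT-iKO there were 4, all higher (Aldoa, Gapdh, Pfkfb3 and Hif1a), beside 3.18% and 8.42%. DESeq2 called Pfkfb3 in YT-iKO and no other member in any of the 5 comparisons, beside 1.25% of its tested genes for MCAo in YT-iKO, 1.11% for MCAo in CTRL, 0.420% and 0.461% for the genotype in sham and after MCAo, and 0% for the difference of the responses.

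None of the 15 glycolytic enzymes was called in the main test, and their direction depended on the method. With factors from the genes of at least 10 CPM, Aldoa and Gapdh were called higher in CTRL (beside 1.78% of all genes) and Gapdh in YT-iKO (beside 1.72%). In the main test 13 of 15 in CTRL and 12 of 15 in YT-iKO had a log2 fold change above 0, with medians of 0.12 and 0.22, and the scaling from the genes of at least 10 CPM gave 14 and 11 of 15. Without Hk2 and Aldoc, 11 and 12 of 13 were above 0 on the main scaling. By limma-voom with sample quality weights, only 5 and 3 of 15 were above 0, with medians of -0.15 and -0.17. In that fit Eno1 was called lower in both genotypes, and in YT-iKO Pfkm and Pfkp were called lower and Hk2 higher, beside 24.2% of all genes called in CTRL and 18.1% in YT-iKO. Hk2 had 0.48 (SE 0.56) in CTRL and -0.02 (SE 0.61) in YT-iKO. Aldoa had 0.33 and 0.45, Pgam1 (phosphoglycerate mutase) 0.33 and 0.22, and Pgk1 (phosphoglycerate kinase) 0.16 and 0.40. Ldha, which regenerates NAD+ from pyruvate, had 0.05 (95% interval -0.47 to 0.57) and 0.28 (-0.24 to 0.80). Hk1, more abundant here than Hk2, had 0.12 and 0.29, Pkm 0.15 and 0.26, Gpi1 (glucose-6-phosphate isomerase) 0.12 and 0.24, Tpi1 (triosephosphate isomerase) 0.12 and 0.19, and Eno1 (enolase 1) -0.08 and 0.01. Over the MCAo libraries Hk1 was at 200, 120, 125 and 186 CPM in CTRL and 192, 106, 108 and 200 CPM in YT-iKO, around sham values of 131, 151, 145 and 154 CPM and of 132, 126, 98.2 and 139 CPM. Pkm was at 469, 255, 288 and 423 CPM in CTRL MCAo and 380, 203, 237 and 454 CPM in YT-iKO MCAo, Ldha at 218, 127, 130 and 222 CPM and at 184, 94.7, 114 and 209 CPM, and Aldoa at 257, 142, 153 and 220 CPM and at 192, 108, 135 and 235 CPM. Pgk1 was at 31.1, 20.3, 19.5 and 26.2 CPM in CTRL MCAo and 28.8, 14.9, 16.97 and 33.8 CPM in YT-iKO MCAo, and Pfkl at 137, 87.6, 95.5 and 127 CPM and at 104, 74.6, 85.0 and 126 CPM. In each of these genes replicates 1 and 4 were high and replicates 2 and 3 low, so that the MCAo groups reached above every sham library of their genotype and down into or below the sham range. The phosphofructokinase genes stayed within 0.21 of 0, with Pfkl at 0.06 and 0.16, Pfkm at -0.01 and 0.03, and Pfkp at 0.07 and -0.20. Pdk1, a pyruvate dehydrogenase kinase, had 0.18 and 0.28.

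The HIF targets were split in direction by edgeR. Of 12, 5 were above 0 and 7 below in each genotype, and on the scaling from the genes of at least 10 CPM 7 were above 0 in CTRL and 5 in YT-iKO. By limma-voom 11 of 12 were below 0 in each genotype, with 5 called lower in CTRL (beside 24.2% of all genes called in either direction) and 3 in YT-iKO (beside 18.1%), and Ddit4 was above 0 in both and called higher in CTRL. Bnip3 and Bnip3l, which mark mitochondria for removal, had -0.07 (95% interval -0.53 to 0.39) and 0.15 in CTRL and 0.14 (-0.32 to 0.60) and 0.19 in YT-iKO. Ankrd37, a small ankyrin-repeat gene, had 0.17 (-0.50 to 0.84) and -0.15 (-0.82 to 0.52). The collagen-modifying hydroxylases split, with P4ha1 at 0.09 and 0.11, Plod2 at -0.03 and -0.15, and P4ha2 at -0.44 and -0.03. Ndrg1 had -0.44 and -0.12, Mxi1 (a MYC antagonist) -0.33 and -0.28, the histone demethylase Kdm3a -0.25 and -0.03, the disulfide oxidase Ero1a -0.09 and 0.08, and the mitochondrial protein Higd1a 0.04 and -0.27. The oxygen-sensing genes Egln1 and Vhl had -0.14 and 0.04, and -0.03 and 0.19. Antisense neighbours share 22.7%, 22.3% and 22.5% of the exon length of Ankrd37, Bnip3 and Higd1a, and reads of the shared stretches cannot be told apart.

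**Figure D3:**
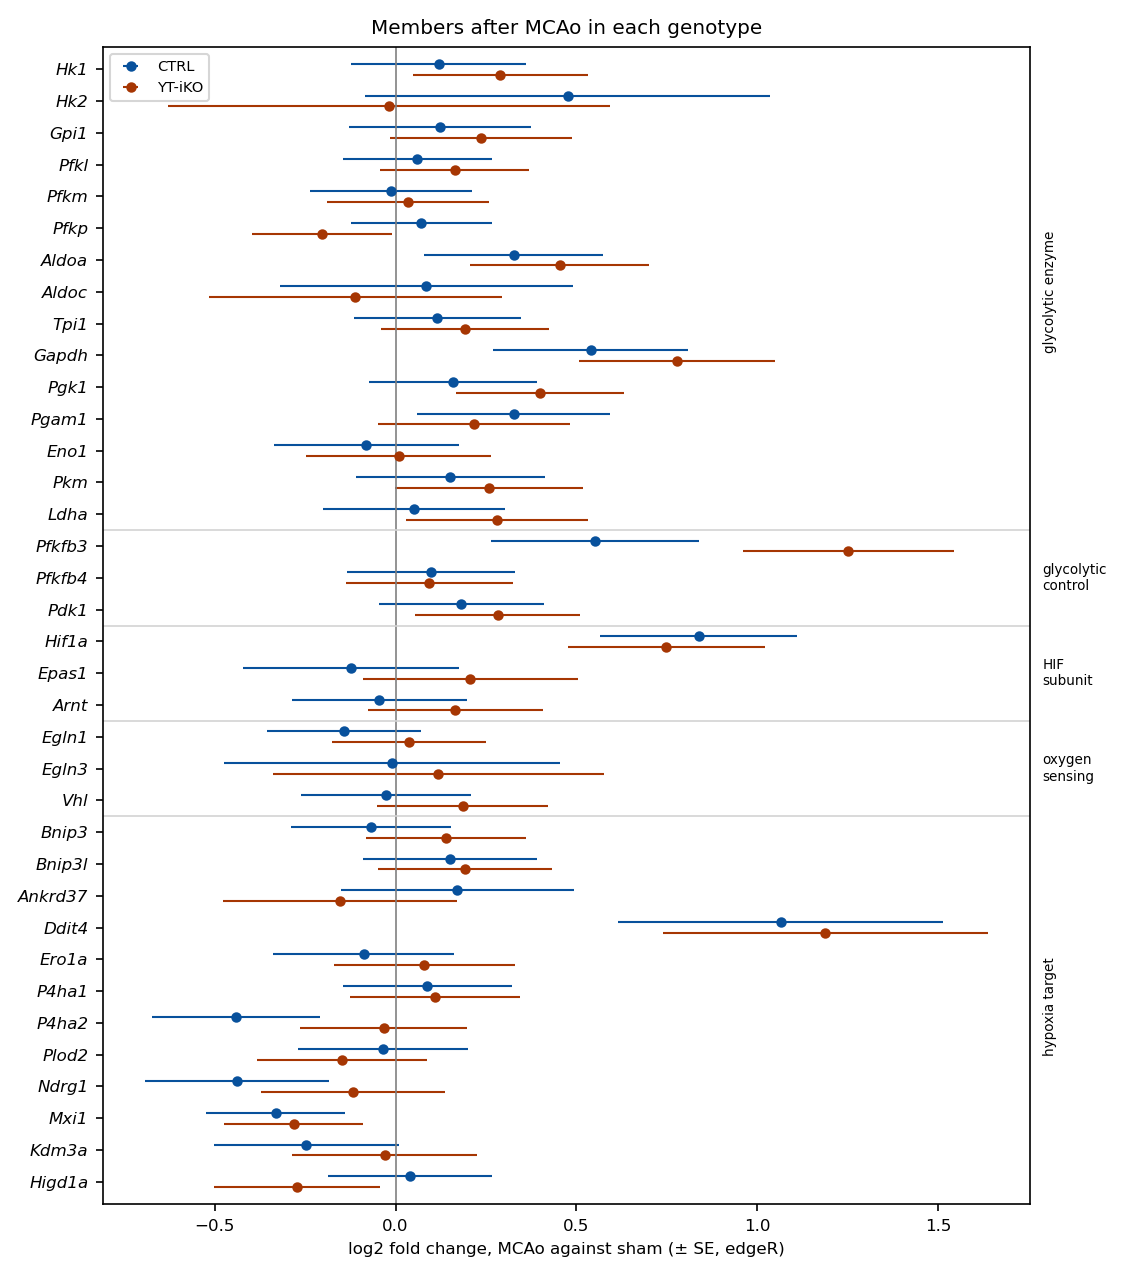
The log2 fold change of MCAo against sham (± SE, edgeR) for each member, in CTRL (blue) and YT-iKO (brown), grouped by role. Pfkfb3, Hif1a, Ddit4 and Gapdh lie farthest right, up to 1.25, and P4ha2 and Ndrg1 lie at -0.44 in CTRL.

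When only the 9123 genes averaging 10 CPM or more entered the fit and its scaling, more members were called, as were more genes in all. In CTRL the calls were Hif1a (0.90, SE 0.10, edgeR adjusted p = 4.3e-05), Aldoa (0.40), Gapdh (0.59), Bnip3l (0.23) and Ddit4 (1.10) upward and Ndrg1 (-0.35) downward, 6 of 32 members beside 10.1% of the genes fitted. In YT-iKO they were Hif1a (0.63, SE 0.10, edgeR adjusted p = 7.4e-04), Pfkfb3 (1.09, SE 0.22, edgeR adjusted p = 0.00651), Gapdh (0.66), Aldoa (0.36) and Pgk1 (0.29), 5 of 32 beside 10.1%. The main test and this fit thus differ in whether Hif1a is called, and the direction of Hif1a was upward in all 10 alternative fits and all 16 omissions of a library in both genotypes. By limma-voom its value in YT-iKO was only 0.17 (SE 0.17, limma adjusted p = 0.437), against 0.51 (SE 0.14, limma adjusted p = 0.0250) in CTRL.

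The genotype comparison in sham mice asked what loss of YAP and TAZ does to these genes without ischaemia. No member was called (all genes 0.0965%) and none had an unadjusted p below 0.05 (all genes 2.16%). Yet 7 glycolytic enzymes, Pfkl, Aldoa, Gapdh, Pgk1, Eno1, Pkm and Ldha, were lower in all 4 YT-iKO sham libraries than in all 4 CTRL sham libraries, 7 of 36 members (19.4%) beside 3.85% of all genes and 6.46% of the genes of at least 10 CPM. In the same comparison all 10 endothelial markers had a log2 fold change below 0, with a median of -0.32 and 0 of them called, and the 6 astrocyte markers summed to 62.1 to 82.1 CPM in YT-iKO sham against 97.3 to 110 CPM in CTRL sham. Of these 6, 3 had a log2 fold change above 0 (median -0.07), and Gja1 (-0.71) and Slc1a3 (-0.63) were the lowest. Of the 8 markers of pericytes and smooth muscle, 3 were above 0 (median -0.34) and 1 was lower without overlap (all genes 2.22%). All 8 of microglia and macrophages (median 0.18) and all 5 of lymphocytes (0.52) were above 0. So were all 4 of red cells (0.84), all 5 of proliferating cells (0.47) and 5 of 6 of monocytes and neutrophils (0.81). For fibroblasts (0.23), oligodendrocytes (0.41) and neurons (0.48), 4 of 5 were above 0, beside 60.1% of all genes. The part of these markers in the enzyme values was not tested.

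Eno1 was at 156, 162, 161 and 162 CPM in CTRL sham and 144, 88.9, 91.8 and 122 CPM in YT-iKO sham, a log2 fold change of -0.52 (95% interval -1.05 to 0.01). Ldha was at 169, 179, 157 and 169 CPM and 141, 116, 110 and 128 CPM (-0.44, -0.97 to 0.08). In both genes the CTRL libraries were tightly grouped and the YT-iKO libraries spread below them. Aldoa was at 153, 155, 158 and 150 CPM in CTRL sham against 148, 105, 106 and 130 CPM (-0.33). Pkm was at 306, 326, 346 and 314 CPM against 299, 270, 214 and 281 CPM (-0.28), and Pfkl at 106, 109, 109 and 106 CPM against 102, 87.2, 75.2 and 83.2 CPM (-0.30). Pgk1 was at 21.5, 21.9, 21.4 and 22.2 CPM against 21.1, 16.9, 15.7 and 17.9 CPM (-0.28), and Gapdh had -0.42. The gap between the nearest libraries of the groups was small for Pgk1, Pkm, Pfkl and Aldoa.

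This pattern depended on the scaling. With RLE factors, an alternative to TMM, the same 7 enzymes had no overlap, beside 3.9% of all genes and 6.69% of the genes of at least 10 CPM. By limma-voom 14 of 15 enzymes were below 0 (median -0.23) and 0 were called, beside 0.460% of all genes. With factors from the genes of at least 10 CPM, Aldoa and Eno1 kept groups without overlap, 2 of 36 members (5.56%) beside 4.49% of all genes and 7.79% of the genes of at least 10 CPM, and the other 5 overlapped. On that scaling 10 of 15 enzymes were below 0 with a median of -0.13, against 13 of 15 with a median of -0.28 on the main scaling. The fit restricted to those genes called 0 members in this comparison, beside 2.33% of the genes fitted. The members' median was -0.22, beside 0.11 for all genes tested and -0.13 for the genes of at least 10 CPM.

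**Figure D4:**
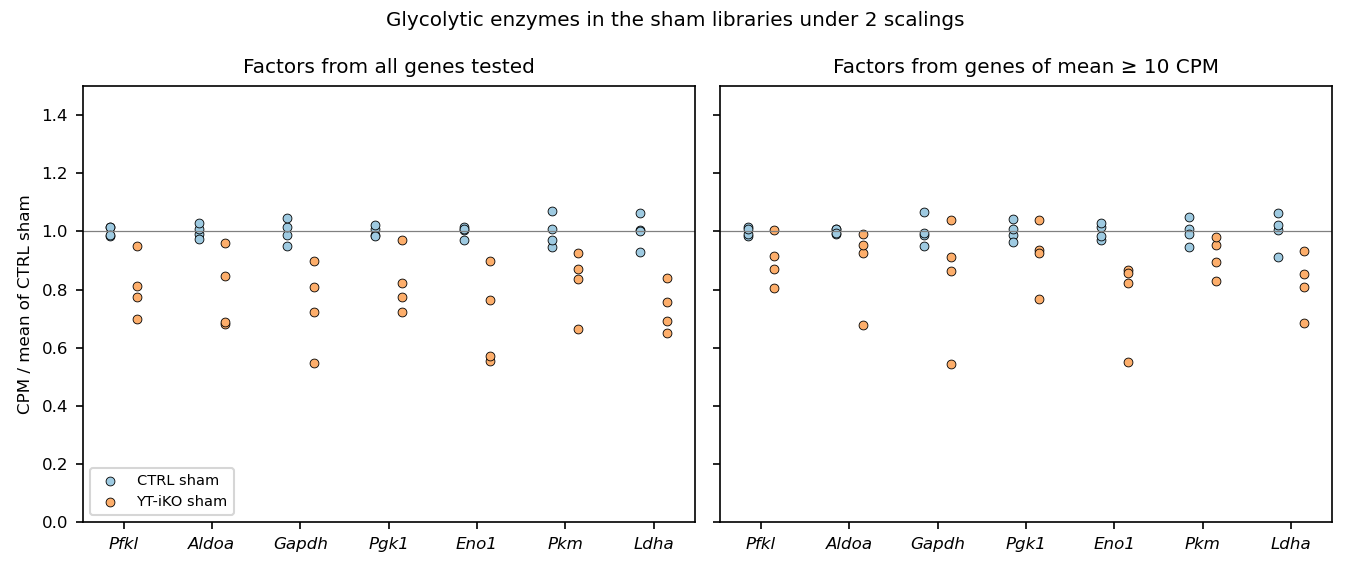
CPM of 7 glycolytic enzymes in each sham library divided by the CTRL sham mean of that gene, with TMM factors from all genes tested (left) and from genes averaging 10 CPM or more (right). The YT-iKO libraries lie below the CTRL libraries for all 7 on the left, and for Aldoa and Eno1 on the right.

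Outside the enzymes, Egln3 had the value farthest from 0 of all members, -0.73 (95% interval -1.67 to 0.21), on 8 to 44 counts a library, and -0.60 (-1.54 to 0.34) after MCAo. The groups overlapped in both. Pfkfb3 had -0.25 (95% interval -0.85 to 0.35), Hif1a -0.14, Epas1 -0.29, Arnt -0.22, Egln1 -0.29 and Vhl -0.30. Of the 12 HIF targets 4 were above 0 and 8 below, from Ero1a at -0.31 to Ddit4 at 0.33. On the scaling from the genes of at least 10 CPM the majority turned, with 9 above 0, 3 below and a median of 0.07.

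After MCAo, YT-iKO and CTRL did not differ in any called member (all genes 0.0708%), and no member had groups without overlap (all genes 0.981%). With factors from the genes of at least 10 CPM, 5 members had none, P4ha2 higher and Pfkm, Eno1, Egln1 and Bnip3l lower, beside 3.21% of all genes and 8.52% of the genes of at least 10 CPM. P4ha2, a collagen prolyl hydroxylase, was the 1 member with an unadjusted p below 0.05 (all genes 1.49%). It was at 34.9, 27.6, 24.2 and 40.2 CPM in CTRL MCAo and 52.0, 31.4, 38.3 and 63.1 CPM in YT-iKO MCAo, beside 40.9, 47.2, 42.1 and 42.2 CPM in CTRL sham and 40.9, 66.2, 40.2 and 41.8 CPM in YT-iKO sham. CTRL MCAo was thus the low group of the 4, below every CTRL sham library. The log2 fold change was 0.54 (SE 0.23, unadjusted p = 0.0291, edgeR adjusted p = 1.00). In the fit of the genes of at least 10 CPM, P4ha2 was called higher (0.52, SE 0.13, edgeR adjusted p = 0.0427) and Eno1 lower (-0.45, SE 0.11, edgeR adjusted p = 0.0404) in YT-iKO MCAo, 2 of 32 members beside 4.22% of the genes fitted. Eno1 was at 196, 119, 114 and 177 CPM in CTRL MCAo and 122, 73.1, 86.8 and 168 CPM in YT-iKO MCAo, and its value was negative in both genotype comparisons. Of the 15 enzymes, 14 were below 0 (median -0.20), and 13 on the scaling from the genes of at least 10 CPM. In the main test 1 of 10 endothelial markers (median -0.12) and 1 of 6 of astrocytes (-0.29) were above 0. For pericytes and smooth muscle it was 2 of 8 (-0.20). Above 0 were also 6 of 8 of microglia and macrophages (0.19), 3 of 4 of red cells (0.46) and 5 of 5 of neurons (0.04), beside 55.5% of all genes. For monocytes and neutrophils it was 2 of 6 (-0.26), for lymphocytes 2 of 5 (-0.07) and for proliferating cells 2 of 5 (-0.04). Oligodendrocytes had 2 of 5 (-0.01) and fibroblasts 3 of 5 (0.03) above 0. The part of these markers in the enzyme values was not tested.

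**Figure D5:**
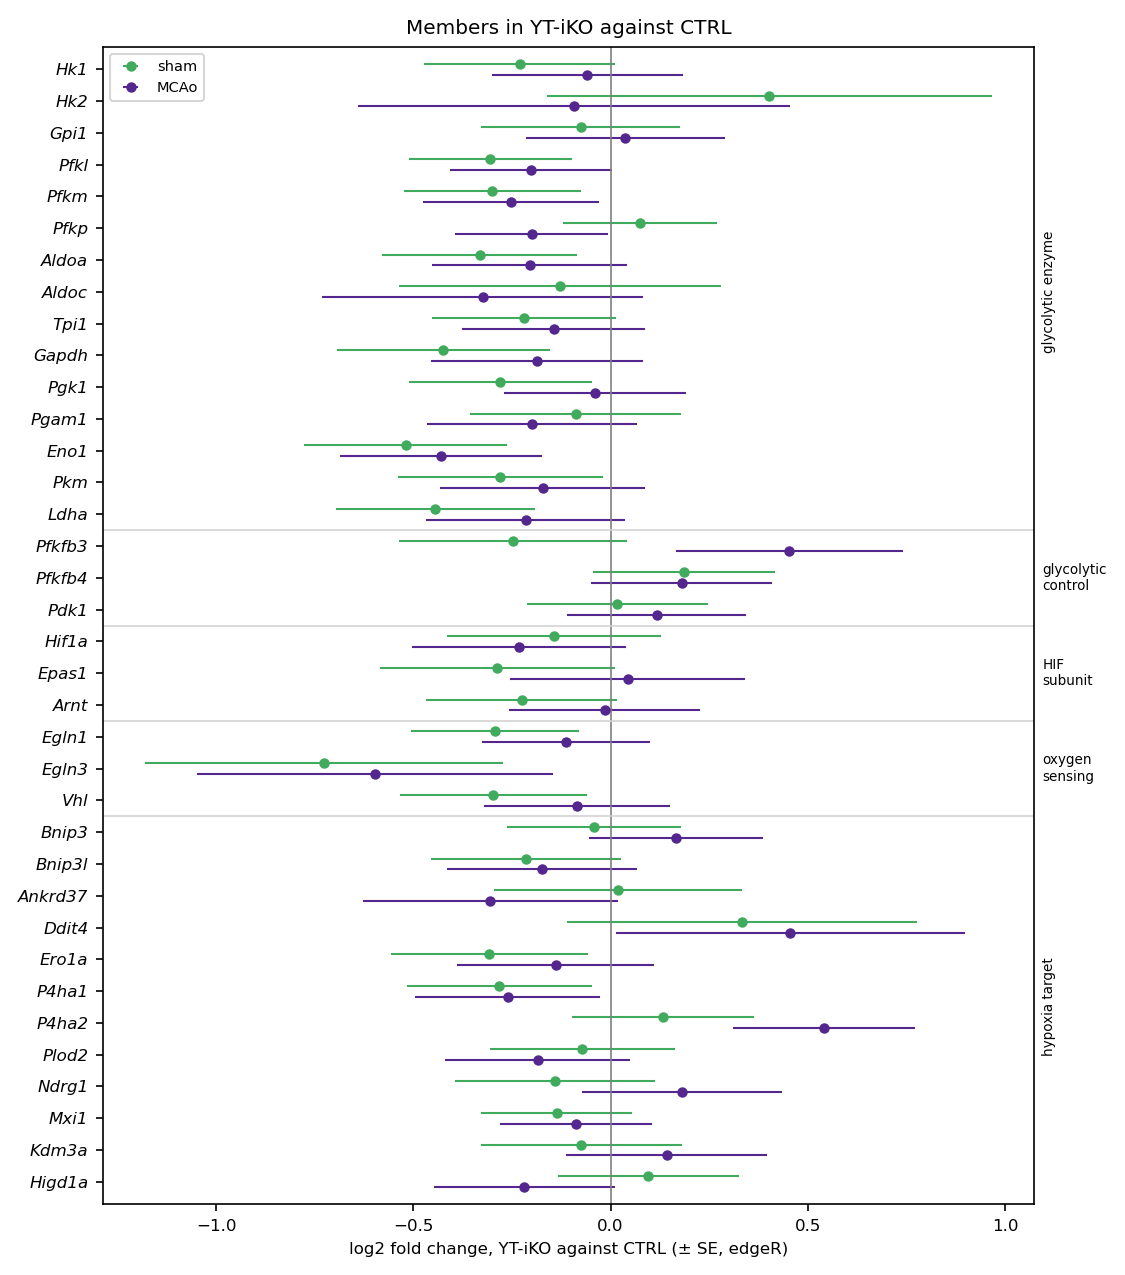
The log2 fold change of YT-iKO against CTRL (± SE, edgeR) for each member, in sham (green) and after MCAo (purple), grouped by role. Most enzymes lie left of 0 in both, with Eno1 at -0.52 and -0.43, and P4ha2 lies at 0.54 after MCAo.

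No member was called for a difference of the MCAo responses between the genotypes (all genes 0%, and 0% of the genes of at least 10 CPM), and 0 members had an unadjusted p below 0.05 (all genes 0.373%). The largest was Pfkfb3 above. The members' median difference was 0.11, and -0.06 on the scaling from the genes of at least 10 CPM, so that it has no stable sign. Of the 15 enzymes 11 were above 0 on the main scaling and 4 on the other, and of the 12 HIF targets 9 and 5.

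Other genes of these pathways, from lists that left the members out, are described by their counts. Of 47 tested genes of glucose and pyruvate handling, none was called by edgeR after MCAo in CTRL (all genes 0.216%) or in YT-iKO (all genes 0.318%). In each genotype 2 had an unadjusted p below 0.05, beside 3.5% and 3.01% of all genes. DESeq2 called Slc16a3 and Myc higher in CTRL, beside 1.11% of its tested genes, and none in YT-iKO, beside 1.25%. By both tools 1 gene, Slc16a1, was called lower in YT-iKO in both genotype comparisons. Of all genes tested, edgeR called 0.0965% in sham and 0.0708% after MCAo, and DESeq2 0.420% and 0.461%. Slc16a1 encodes MCT1, the lactate and pyruvate carrier of the blood-brain barrier. It was at 451 ± 86.2 CPM in CTRL sham, 188 ± 50.8 in YT-iKO sham, 446 ± 146 in CTRL MCAo and 146 ± 16.1 in YT-iKO MCAo, with log2 fold changes of -1.26 (SE 0.26, edgeR adjusted p = 0.0734) in sham and -1.61 (SE 0.26, edgeR adjusted p = 0.00852) after MCAo. The groups did not overlap in either comparison. In the genotype comparison in sham mice, 1 of the 41 tested genes of the hypoxia response was called (all genes 0.0965%), Edn1, the vasoconstrictor endothelin 1, and 6 had an unadjusted p below 0.05, all lower (all genes 2.16% in either direction). Edn1 was lower in YT-iKO sham (31.6 ± 6.84 CPM) than in CTRL sham (104 ± 7.17 CPM), with a log2 fold change of -1.72 (SE 0.33, edgeR adjusted p = 0.0391). After MCAo the genotype value of Edn1 was -1.09 (SE 0.32, edgeR adjusted p = 0.931), which DESeq2 called (adjusted p = 0.0951). Limma-voom with sample quality weights also called it lower there (-1.52, SE 0.20, limma adjusted p = 4.1e-05), beside 0.827% of all genes.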

How the data were processed

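The authors sequenced cDNA made with a SMART-Seq ultra-low-input kit, which keeps no strand and no molecular identifiers, as paired ends. Per the labels and methods, reads were aligned with STAR 2.7.8a to GRCm38 with GENCODE annotation, and the deposited values are raw counts per gene. The counting program and its settings are not given in the sources used here. No gene was removed before filtering.

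The deposited counts were tested with edgeR 4.0.16 (R 4.3.3): filterByExpr (minimum count 10, minimum total 15), TMM factors, and a quasi-likelihood fit with all 4 groups in 1 model (glmQLFit, glmQLFTest). P-values were adjusted over the 31085 genes tested, and calls were made at an adjusted p below 0.1, the study's own threshold. The common dispersion was 0.160. Libraries of a group are pools of several mice, and which pools shared animals or days is not known. DESeq2 1.42.0 and limma 3.58.1 were alternatives. Members and lists were chosen with earlier results of these data known. Every member is named, and library values are given for members called or without overlap of the groups in the main test and its scaling, and for Hif1a, Epas1, Hk1, Hk2, Pfkfb3, Gapdh, Ldha and Pgk1. They are also given for Ddit4, singled out after its values were seen. Near-identical copies were sought with blastn 2.17.0+ among GENCODE M21 transcripts, and gene coordinates and exon lengths come from that annotation. The paper names a different GENCODE release for its mapping. Promoter sequences are RefSeq's (GRCm38.p6). The lowest chi-square per gene between libraries of a group was 5.54, so no library was a duplicate. The edgeR, DESeq2 and limma-voom fits were tested on simulated counts for MCAo in CTRL, and the outcome is not given here. Without molecular identifiers, counts are not independent molecules. The result of 1 gene of the other hypoxia list, and with it that list's counts after MCAo, is not reported here.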

Additional observations from a re-analysis of the deposited data

Results flagged for a closer look

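Each member was examined in each group of 4 libraries for a library far from the other 3, together with the members' share of counts and the background density, 152 groups in all. In 5 groups a library stood apart by Dixon's criterion, where chance gives about 1 in 20. The numbers in parentheses are the gap to the nearest library divided by the range of the group, with a critical value of 0.829. Vhl was low in CTRL sham 2, at 11.3 CPM against 13.8 to 14.2 in the other libraries (0.861), and high in YT-iKO sham 1, at 14.8 CPM where the lowest library held 9.16 CPM (0.85). P4ha2 was high in YT-iKO sham 2, at 66.2 CPM against 40.2 to 41.8 (0.936). Mxi1 was high in YT-iKO MCAo 4, the library of the lowest background, at 104 CPM against 69.4 to 74.2 (0.861). Higd1a was low in YT-iKO sham 3, the library of the highest background, at 7.97 CPM against 12.2 to 12.4 (0.96).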

How the results depend on the processing

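Counts of called members depended on the processing. For MCAo in CTRL (0 in the main test) they were, with the share of all genes called in brackets, 3 with TMM factors from genes of at least 10 CPM (1.78%), 6 with only those genes in the fit (10.1%), 9 with limma-voom and sample quality weights (2 higher and 7 lower, 24.2%), 2 with only the groups compared (2.52%), and 3 with background density as a covariate (2.03%), against 0.216% in the main test. For MCAo in YT-iKO (1) the same settings gave 3 (1.72%), 5 (10.1%), 8 (2 higher and 6 lower, 18.1%), 0 (0.0624%) and 2 (1.52%), against 0.318%, and 0 at an adjusted p below 0.05 (0.219%). For YT-iKO MCAo against CTRL MCAo (0), 2 were called with only the genes of at least 10 CPM (4.22%) and 1 with the density covariate (0.750%). DESeq2, RLE factors and the other filters gave the main counts. The cause was not tested. Leaving out single libraries gave 0 to 1 for MCAo in YT-iKO (0.113% to 0.642% of all genes) and 0 in the other 4 comparisons. The shares there were 0.0791% to 0.492% for MCAo in CTRL and 0% for the difference of the responses. For the genotype they were 0.0366% to 0.131% in sham and 0.0334% to 0.143% after MCAo. Fits added after seeing the data gave, for MCAo in CTRL and in YT-iKO, 1 and 3 without the 2 libraries of highest background (1.19% and 1.53%), 8 and 7 with the genes of at least 10 CPM and a replicate block (11.1% and 11.4%, Pfkfb3 among them in both genotypes), and 6 and 4 with those genes and the density covariate (11.8% and 9.16%). In the last 2 fits, 1 (Eno1, lower) and 0 were called for the genotype in sham (2.89% and 2.61%), and 2 and 3 after MCAo (4.63% and 4.92%). With the replicate block alone, the counts were those of the main test (1 for MCAo in YT-iKO). Same-numbered libraries deviated together in 17 of 24 pairs (correlation above 0.1, median 0.26, against -0.13 for 72 other pairs), and since not every pair passed 0.1 and the labels tie no number to shared animals or days, the numbers were not read as pairs. On the scaling from genes of at least 10 CPM, members without overlap after MCAo numbered 12 in CTRL, 4 in YT-iKO and 5 between the genotypes. Beside them stood 7.34%, 3.18% and 3.21% of all genes, and 17.2%, 8.42% and 8.52% of the genes of at least 10 CPM. On the main scaling the counts were 2, 1 and 0, beside 4.14%, 1.28% and 0.981% of all genes. With RLE factors they were 4, 1 and 0, beside 4.97%, 1.37% and 1.11%. Under limma-voom the sign differed from the main test for 14 of 36 members for MCAo in CTRL, 19 for MCAo in YT-iKO, 2 for the genotype in sham and 5 after MCAo. Among the 14 members given library by library, 6 such values were called or had a main value beyond 1 SE of 0, namely Ddit4 in YT-iKO MCAo against CTRL MCAo (-0.18) and, for MCAo in YT-iKO, Hk1 (-0.22), Hk2 (0.95), Pgk1 (-0.10), Eno1 (-0.42) and Ldha (-0.17). Background counts limit what can be said of members below 10 CPM, and the printed intervals hold for the main test only.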

Other observations

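Hif3a, a HIF relative that can dampen the other subunits, had a log2 fold change of 1.41 (SE 0.37, unadjusted p = 0.00102, edgeR adjusted p = 0.226) after MCAo in YT-iKO, and Adm, the vasodilator peptide adrenomedullin, had 1.14 (SE 0.31, unadjusted p = 0.00126, edgeR adjusted p = 0.250). Adm had 1.01 (SE 0.30, unadjusted p = 0.00318, edgeR adjusted p = 0.497) in CTRL, where all 4 MCAo libraries lay above all 4 sham libraries. Edn1 had 1.16 (SE 0.32, unadjusted p = 0.00164, edgeR adjusted p = 0.290) after MCAo in YT-iKO. In CTRL, Hif3a had 0.54 (SE 0.37) and Edn1 0.53 (SE 0.32) after MCAo. Myc, a driver of glycolytic genes, had 1.88 in CTRL (SE 0.47, unadjusted p = 5.99e-04, edgeR adjusted p = 0.163) and 1.34 in YT-iKO (SE 0.46, unadjusted p = 0.00757, edgeR adjusted p = 0.694). Slc16a3, the lactate exporter MCT4, had 0.84 in CTRL after MCAo (SE 0.25, unadjusted p = 0.00251, edgeR adjusted p = 0.438), and its response in YT-iKO was lower by 0.77 (SE 0.35, unadjusted p = 0.0368, edgeR adjusted p = 1.00). None of these values passed the adjustment in the edgeR test. DESeq2 called Hif3a (adjusted p = 0.0273), Adm (adjusted p = 0.0367) and Edn1 (adjusted p = 0.0378) higher after MCAo in YT-iKO, and Adm (adjusted p = 0.0907), Myc (adjusted p = 0.00436) and Slc16a3 (adjusted p = 0.0714) in CTRL, but not the difference for Slc16a3 (adjusted p = 1.00). By limma-voom Edn1 had only 0.27 (SE 0.22, limma adjusted p = 0.360) after MCAo in YT-iKO. That fit called Adm higher after MCAo in CTRL (0.73) and YT-iKO (0.74), and Hif3a in both (0.64 and 0.83). In CTRL it also called Myc (1.87) and Slc16a3 (0.71) higher. It called 24.2% of all genes for MCAo in CTRL and 18.1% in YT-iKO.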
